A study of Mus musculus with 18 samples.

Results

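Brown fat was compared with white fat inside Casp6 knockout mice, using the 3 libraries of brown adipose tissue (BAT) and the 6 libraries of white adipose tissue from knockout animals, 3 inguinal (iWAT) and 3 epididymal (eWAT). These are 9 of the 18 libraries in the series, and no wild type library entered. All animals were male C57BL/6J mice with a global Casp6 knockout, from crosses between heterozygotes, that had eaten a diet with 60% of energy as fat for 12 weeks from an age of 10 to 14 weeks and were fasted for 10 h before the tissues were taken. The comparison therefore describes depots within 1 genotype and 1 diet. Genes were matched over the 3 depot tables by symbol. Of 25124 joined genes 22457 were kept, 2616 were set aside because the depots were counted on different transcripts, and 51 were set aside as Y-linked. The libraries held 8636760 to 12428683 counts in BAT, 17468951 to 19043523 in iWAT and 16717201 to 19139694 in eWAT, so the brown libraries were the shallowest. Nothing in the sources used here says whether libraries with the same number in different depots came from the same mouse, and p-values measure the spread among the 3 libraries of each depot, except where a library is left out.

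Brown adipocytes burn fuel to make heat. Uncoupling protein 1 in their inner mitochondrial membrane lets protons return to the matrix without making ATP, and noradrenaline from sympathetic nerves turns the process on through β-adrenergic receptors and cyclic AMP. White adipocytes store triglyceride in a single large droplet, hold few mitochondria and secrete hormones such as leptin. Inguinal fat can recruit thermogenic adipocytes, whereas epididymal fat is a visceral depot that gathers macrophages in obesity.

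The knocked-out gene is given first. Casp6, which encodes an executioner caspase and lies on the + strand at chr3:129901415-129914112 (mm10), was counted at 3.48, 6.08 and 7.89 CPM in BAT, 5.84, 6.44 and 8.41 in iWAT and 5.77, 6.47 and 4.1 in eWAT. The groups overlapped, and no difference from the white mean was called (log2 fold change -0.07 ± 0.29 SE, edgeR adjusted p = 0.86). These counts cover every exon of the annotated transcript, and no wild type library was compared here, so they do not check the genotype.

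The labelled tissues were checked against their markers. Ucp1 was at 4635 CPM or more in every BAT library and at 5.88 CPM or less in every white library, where CPM is the usual per-library normalised count (TMM scaling). In bulk tissue a difference in the number of cells of a type and a difference in RNA per cell cannot be told apart, here and below. Skeletal muscle genes set the BAT libraries apart from one another. The 20 muscle genes summed to 8515 CPM in replicate 1, 641 in replicate 2 and 10418 in replicate 3 of BAT, against 166 to 685 in iWAT and 76.1 to 193 in eWAT, where Acta1, the skeletal actin gene, made up most of the sum. The defining fast-fibre genes Myh4 and Ckm were at 140 and 41.3 CPM in BAT replicate 2, at 626 or more in replicates 1 and 3, and at 0 to 0.166 in white fat. All 17 muscle genes tested were called higher in BAT (median log2 fold change 9.23), and 15 were with BAT represented by replicate 2 alone (median 5.66). Most counts below are therefore also given with replicate 2 as the only BAT library. The spread then comes from the white libraries alone, and the lone BAT library is assumed to vary as they do. Among the white libraries, eWAT replicate 3 stood apart in lymphocyte genes, whose 14 members summed to 273 CPM there and to 23.5 and 26.0 in the other eWAT libraries. Its largest members were the B cell genes Ms4a1, Cd79b, Pax5 and Cd79a, at 40.1 to 49.6 CPM against 1.15 to 4.43 in the other eWAT libraries. The iWAT replicate 3 library had the highest macrophage sum of its depot, 2647 CPM against 874 and 939. The 9 epithelial and epididymal genes that could be summed reached at most 2.30 CPM in any library, and none had enough counts to test.

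**Figure D1:**
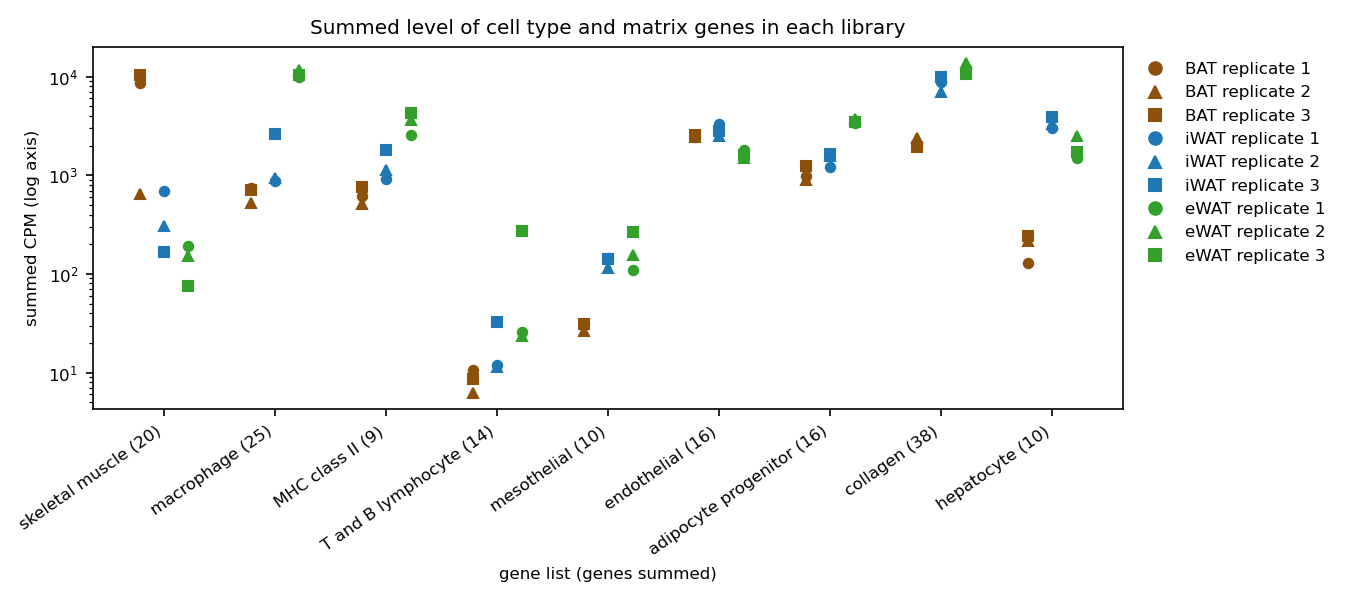
Summed CPM (log axis) of cell type and matrix gene lists in each of the 9 libraries, with the number of genes summed in brackets. Each point is 1 library, coloured by depot. Skeletal muscle genes reach 8515 and 10418 CPM in BAT replicates 1 and 3 and 641 in replicate 2, macrophage genes lie at 9936 to 11571 CPM in eWAT, and lymphocyte genes reach 273 CPM in eWAT replicate 3.

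Brown and white fat differed over a large part of the transcriptome. Of 13655 genes tested, 2871 (21.0%) were called higher and 3322 (24.3%) lower in BAT than in the mean of the white depots (45.4% in either direction), each depot weighing the same, where a call needs an edgeR adjusted p under 0.05 and a difference of at least 1.5-fold. With BAT replicate 2 alone 2258 (15.6%) and 2385 (16.5%) of 14444 genes were called. The 3 BAT libraries lay above all 6 white libraries for 2974 genes (21.8%) and below them for 2886 (21.1%), or 42.9% in either direction. BAT had 2446 higher (17.9%) and 2706 lower genes (19.8%) against iWAT, and 3139 (23.0%) and 3575 (26.2%) against eWAT (49.2% in either direction). The white depots differed from each other too, with 1784 genes higher (13.1%) and 1326 lower (9.71%) in eWAT than in iWAT. With libraries scaled by their total counts alone, the split was 2432 higher and 4379 lower in BAT against eWAT, and 2191 higher and 868 lower in eWAT against iWAT. The first principal component held 64.9% of the variance of log2 CPM and placed BAT at -124 to -113, iWAT at 11.3 to 44.0 and eWAT at 85.4 to 94.2. The middle 50% of all tested genes lay between log2 fold changes of -0.76 and 0.55, with a median of -0.04, and each list below is read against these values and the shares given here.

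**Figure D2:**
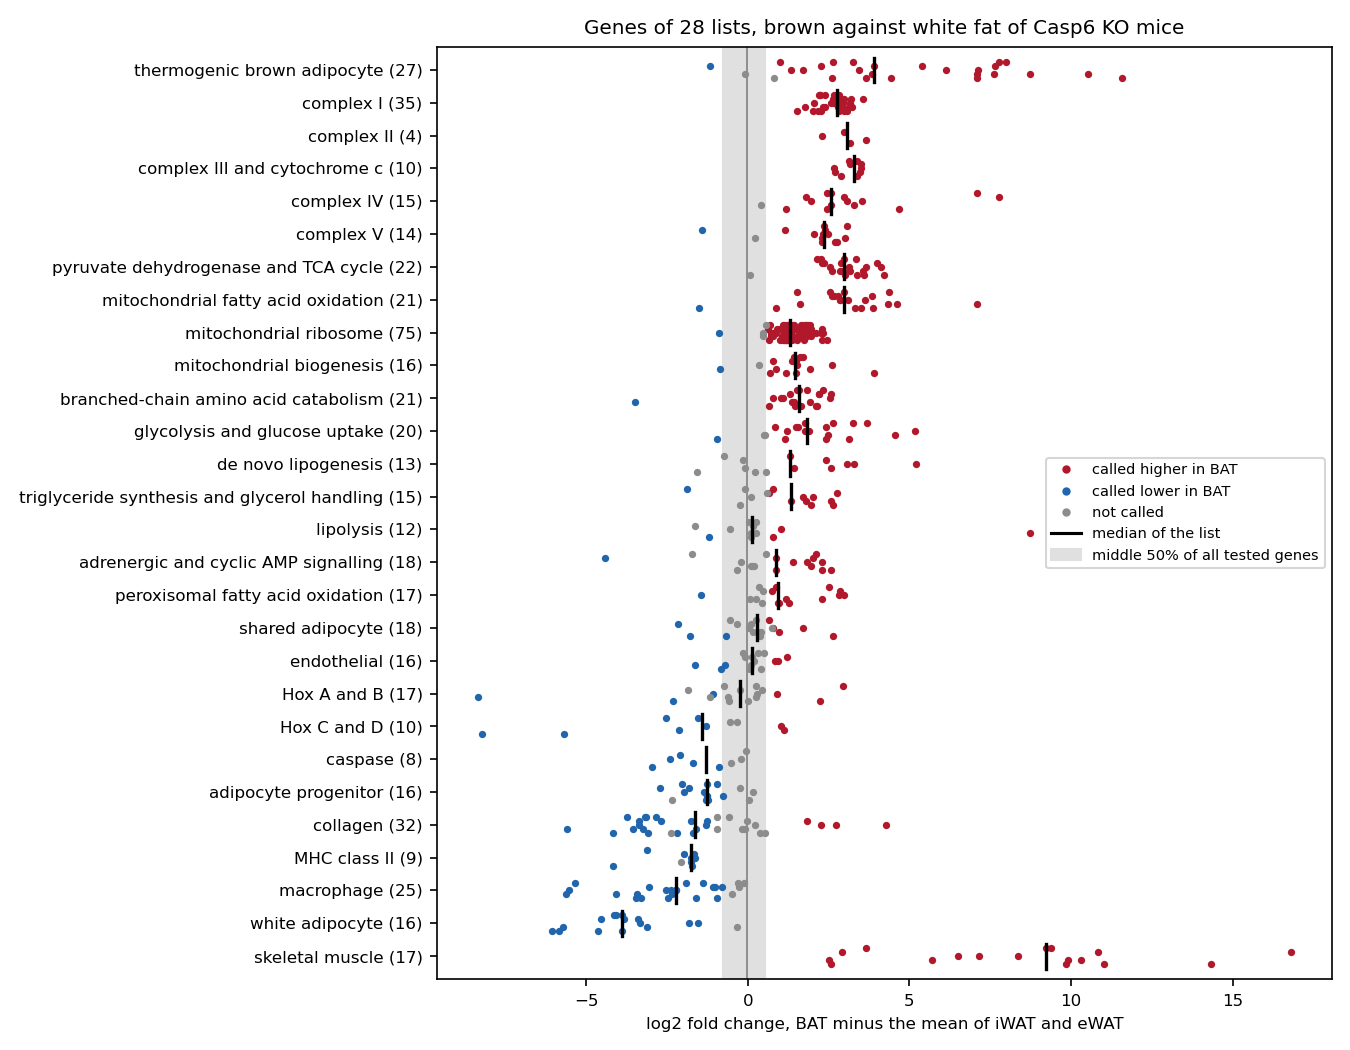
The log2 fold change of BAT against the mean of iWAT and eWAT for each tested gene of 28 lists (number tested in brackets). Red points were called higher and blue points lower in BAT, grey points were not called, black bars are list medians, and the grey band is the middle 50% of all 13655 genes. The respiratory chain, TCA cycle and fatty acid oxidation lists lie almost wholly to the right, with medians of 2.35 to 3.27, and the white adipocyte list to the left, with a median of -3.90.

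Of 27 thermogenic genes tested, 24 were called higher in BAT and 1 lower, with a median log2 fold change of 3.90, and 21 had all BAT libraries above all white libraries. With replicate 2 alone 23 were called higher and 0 lower, and the median was 4.40. Against the depots separately, 21 were higher than in iWAT (median 3.55) and 24 higher than in eWAT (median 4.45).

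Ucp1, at chr8:83290348-83298456 on the + strand, was counted at 8639, 7357 and 4635 CPM in BAT, 3.71, 1.21 and 1.43 in iWAT and 5.88, 0.47 and 0.776 in eWAT. No white library came near the brown level, and the mean difference was 3075-fold (log2 fold change 11.59 ± 0.80 SE, adjusted p = 5.9e-06). Cidea, a lipid droplet protein enriched in brown adipocytes, was even over the BAT libraries, at 2725, 3149 and 2803 CPM in BAT, 7.61, 19.7 and 18.1 in iWAT and 1.61, 3.65 and 3.71 in eWAT. It was 428-fold higher in BAT (log2 fold change 8.74 ± 0.35, adjusted p = 2.9e-08) and was also higher in iWAT than in eWAT (eWAT minus iWAT -2.33, adjusted p = 0.0019). Dio2, the deiodinase that makes active thyroid hormone inside the brown adipocyte, was at 70.9, 139 and 63 CPM in BAT, 0, 0.115 and 0.716 in iWAT and 1.5, 1.46 and 1.55 in eWAT. Its lowest BAT library stood far above the highest white library (log2 fold change 7.12 ± 0.45, adjusted p = 1.7e-06). Elovl3, a fatty acid elongase of thermogenic fat, was at 316, 299 and 193 CPM in BAT, 0.649, 0.173 and 2.63 in iWAT and 0.923, 3.08 and 0.554 in eWAT, a 202-fold difference. Zic1, a transcription factor of classical brown fat, was at 14.1, 10.4 and 12.9 CPM in BAT and had no count in any of the 6 white libraries, so it was at least 72.9-fold higher against a floor of 3 counts per library.

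The promoters of Ucp1, Dio2 and the white adipocyte hormone gene Lep are shown because these genes mark the opposite ends of the comparison. Each line gives the 250 bases before the RefSeq transcript start in GRCm38.p6 (mm10), 5′ to 3′ on the gene's strand, and capitals mark the motif matches found. The windows are chr8:83290098-83290347 (+) for Ucp1, chr12:90739039-90739288 (-) for Dio2 and chr6:29059971-29060220 (+) for Lep.
Ucp1: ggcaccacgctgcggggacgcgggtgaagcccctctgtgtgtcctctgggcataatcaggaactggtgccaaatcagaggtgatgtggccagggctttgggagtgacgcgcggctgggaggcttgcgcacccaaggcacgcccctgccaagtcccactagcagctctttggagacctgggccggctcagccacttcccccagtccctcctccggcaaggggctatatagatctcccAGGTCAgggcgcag
Dio2: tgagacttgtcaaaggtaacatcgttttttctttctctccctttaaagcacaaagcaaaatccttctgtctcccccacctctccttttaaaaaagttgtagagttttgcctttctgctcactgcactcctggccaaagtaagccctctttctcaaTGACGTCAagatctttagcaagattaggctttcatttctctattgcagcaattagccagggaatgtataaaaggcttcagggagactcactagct
Lep: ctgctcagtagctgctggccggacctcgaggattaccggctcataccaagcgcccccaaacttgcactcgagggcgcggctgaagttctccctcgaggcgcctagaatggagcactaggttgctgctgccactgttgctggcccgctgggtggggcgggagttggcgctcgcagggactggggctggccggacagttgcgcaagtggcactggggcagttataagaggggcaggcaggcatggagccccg
Searches on both strands covered the nuclear receptor core AGGTCA, the cyclic AMP response element TGACGTCA, the estrogen-related receptor motif TCAAGGTCA (which contains the nuclear receptor core), the ETS core CCGGAAG and the nuclear respiratory factor 1 motif. In the Ucp1 window the single match was a nuclear receptor core that begins 14 bases before the start. The Dio2 window held a cyclic AMP response element that begins 95 bases before the start, a motif found in 2.50% of the 10087 promoters of tested genes with a window at the deposited transcript start. The Lep window held none of the 5 motifs. Among 19 thermogenic genes with a window, 4 (21.1%) held the nuclear receptor core, against 10.7% of all 10087 and 0 of 11 white adipocyte genes. The core was not particular to thermogenic genes. It was in 18.0% of 61 promoters of complexes I to V and 22.2% of 18 of mitochondrial fatty acid oxidation. For the TCA cycle list it was in 15.8% of 19, and for the mitochondrial ribosome in 14.3% of 63. The nuclear respiratory factor 1 motif was in 2 of 11 white adipocyte promoters, 0 of 19 thermogenic ones and 151 of all 10087. These shares were not tested. A match is a string of letters, not a bound site, and enhancers further away were not read.

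Among the regulators in the list, Ppargc1a, the coactivator that drives mitochondrial biogenesis, was at 82.1, 116 and 48.5 CPM in BAT, 4.6, 8.92 and 7.52 in iWAT and 5.19, 4.33 and 3.38 in eWAT. It was 15-fold higher in BAT (log2 fold change 3.90 ± 0.28, adjusted p = 1.8e-06), with no overlap. Esrra, the estrogen-related receptor α that binds many mitochondrial genes, was at 218 to 231 CPM in BAT and 25.1 to 45.1 in white fat. Prdm16, a determination factor of brown and beige adipocytes, was at 33.2, 53.9 and 46.6 CPM in BAT, 32.1, 54.2 and 38.7 in iWAT and 9.34, 12.6 and 14.6 in eWAT. Its BAT and iWAT libraries overlapped, so the call against the white mean (log2 fold change 0.99 ± 0.20, adjusted p = 0.0018) came with a difference of 1.87 against eWAT and 0.10 against iWAT. Lhx8 was alike, at 6.3, 4.67 and 5.34 CPM in BAT, 14, 3.22 and 8.53 in iWAT and 0.231, 0.261 and 0.443 in eWAT, and was higher in iWAT than in eWAT by the test of that difference (adjusted p = 0.00030). With replicate 2 alone Lhx8 was not called (adjusted p = 0.10). Nrg4, which encodes a secreted growth factor, was higher against the white mean (log2 fold change 1.33 ± 0.21, adjusted p = 0.00035), while iWAT replicate 2 reached 199 CPM, within the BAT range of 175 to 213. Irf4 and Zfp516, transcriptional regulators of thermogenesis, were not called, with log2 fold changes of 0.81 and -0.09 (adjusted p = 0.10 and 0.59). Fgf21 was the thermogenic list gene called lower, at 1 to 2.28 CPM in BAT and 2.38 to 6.43 in white fat (log2 fold change -1.18 ± 0.44, adjusted p = 0.039), a call lost with replicate 2 alone (adjusted p = 0.093) and without any of the replicates BAT 2, BAT 3, iWAT 1 and eWAT 1 to 3 (adjusted p = 0.052 to 0.14).

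**Figure D3:**
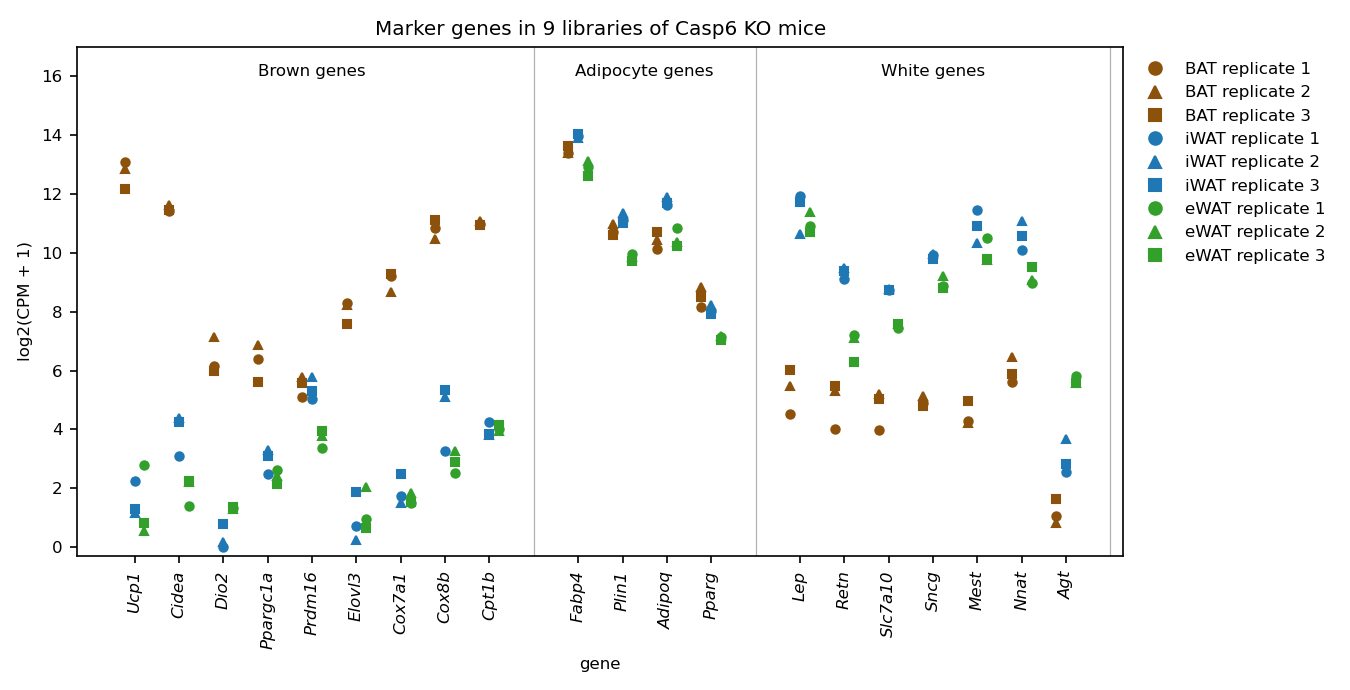
Level of brown, general adipocyte and white marker genes, as log2(CPM + 1), in the 9 libraries. Each point is 1 library, coloured by depot, with the symbol giving its replicate number. Ucp1, Cidea, Dio2, Elovl3, Cox7a1, Cox8b and Cpt1b separate BAT from all white libraries, Prdm16 does not separate BAT from iWAT, and the order is turned for Lep, Retn, Slc7a10, Sncg, Mest, Nnat and Agt.

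Mitochondrial genes rose almost as a block. The respiratory chain pumps protons with complexes I, III and IV, complex II feeds in electrons from succinate, and complex V makes ATP from the gradient. Of 78 tested genes of complexes I to V, 75 were called higher in BAT and 1 lower, with a median log2 fold change of 2.73, and 75 had all BAT above all white libraries. With replicate 2 alone 73 of 78 were called higher. Together the 79 genes counted took 6.09% ± 0.481 (SD, n = 3) of the counts in kept genes in BAT, 1.09% ± 0.117 in iWAT and 0.815% ± 0.141 in eWAT. Shares of counts below have the same base. All 35 tested genes of complex I were called, over a range of 1.51 to 3.55. The top of that range was Ndufv1, the subunit that takes electrons from NADH, at 1572, 1647 and 1611 CPM in BAT, 188, 176 and 176 in iWAT and 107, 116 and 90.7 in eWAT. All 4 genes of complex II and all 10 of complex III with cytochrome c were called, with medians of 3.06 and 3.27. Uqcrfs1, the Rieske iron-sulphur protein, was at 1491 CPM or more in BAT and 208 or less in white fat.

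Complexes IV and V held the exceptions. In complex IV 14 of 15 genes were called, and Cox4i2, an alternative isoform of subunit 4, was not (log2 fold change 0.40, adjusted p = 0.29). In complex V 12 of 14 were called higher. Atp5g3, which encodes subunit c of the proton channel, was at 218 to 290 CPM in BAT, 255 to 319 in iWAT and 150 to 242 in eWAT, and was not called (log2 fold change 0.21, adjusted p = 0.32). Atp5b, the catalytic β subunit, was at 10458 CPM or more in BAT and 1801 or less in white fat (log2 fold change 2.99). Atpif1, the inhibitor of ATP synthase, was called lower, at 11.9, 12.8 and 16.2 CPM in BAT, 23.9, 19.3 and 25.5 in iWAT and 43.6, 74.3 and 55.1 in eWAT. All its BAT libraries lay below all white libraries (log2 fold change -1.41 ± 0.20, adjusted p = 0.00011), and eWAT stood above iWAT (adjusted p = 0.0012). Cox7c and Atp5l were counted at under 7 CPM in every library, and genes with near-identical copies in the genome may have lost reads in counting, so their levels are uncertain.

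The promoter of Sdhd is shown as that of the respiratory chain gene with the largest rise among those with an ETS core in the window. Sdhd, which encodes a membrane anchor of complex II, was at 900.0, 847 and 1038 CPM in BAT, 125, 129 and 149.9 in iWAT and 93.4, 122 and 97.6 in eWAT. Its window is chr9:50603850-50604099 on the - strand, 250 bases before the start in GRCm38.p6, with the ETS core on the opposite strand in capitals, beginning 46 bases before the start.
Sdhd: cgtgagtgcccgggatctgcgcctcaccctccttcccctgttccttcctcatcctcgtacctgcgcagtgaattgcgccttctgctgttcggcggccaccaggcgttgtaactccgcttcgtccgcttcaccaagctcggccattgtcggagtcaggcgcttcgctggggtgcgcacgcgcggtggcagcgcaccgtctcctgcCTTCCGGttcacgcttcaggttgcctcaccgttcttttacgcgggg
The ETS core was in 11 of 61 promoters of complexes I to V (18.0%), 16 of 63 of the mitochondrial ribosome (25.4%) and 13.3% of all 10087. The cyclic AMP response element was in 5 of the 61 (8.20%) against 2.50% of all.

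Behind the respiratory chain, the genes that build mitochondria moved less. Of 75 mitochondrial ribosomal protein genes 71 were called higher and 1 lower, with a median of 1.30, below the 2.73 of complexes I to V. Mrps35 had the largest rise, 5.50-fold, and Mrps6 was the 1 called lower (log2 fold change -0.89 ± 0.15, adjusted p = 0.0004). Mrps6 was at -1.47 against iWAT and at -0.31 against eWAT, where it was not called (edgeR adjusted p = 0.13). From replicate 2 alone 63 were called higher. Of 16 biogenesis genes 14 were called higher and 1 lower. Tfam, which packages and transcribes mitochondrial DNA, was at 71.0 to 83.7 CPM in BAT and 17.4 to 29.9 in white fat, a 3.08-fold difference. The fusion genes Mfn1, Mfn2 and Opa1 rose with log2 fold changes of 1.52, 1.5 and 1.71, and the fission gene Dnm1l with 0.69. The mitochondrial DNA polymerase gene Polg was not called (0.36, adjusted p = 0.051). Pprc1, a relative of Ppargc1a, was the gene called lower (log2 fold change -0.87 ± 0.18, adjusted p = 0.0016), in contrast with Ppargc1a itself, and it was not called with replicate 2 alone (adjusted p = 0.11).

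Fuel oxidation followed the respiratory chain in size. Of 22 genes of pyruvate dehydrogenase and the TCA cycle 21 were called higher in BAT, with a median of 2.98. The list took 3.56% ± 0.0526 (SD, n = 3) of BAT counts in kept genes against 0.571% ± 0.0563 in iWAT and 0.403% ± 0.0565 in eWAT. Citrate synthase, Cs, was at 3108, 3185 and 3183 CPM in BAT, 483, 474 and 585 in iWAT and 329, 396 and 266 in eWAT. The largest rise was that of Sucla2, the ATP-forming subunit of succinyl-CoA synthetase, at 2387 to 2541 CPM in BAT and 74.8 to 176 in white fat (18.7-fold), while its GTP-forming counterpart Suclg2 was at 130 to 145 CPM in BAT (log2 fold change 2.15). Pcx, pyruvate carboxylase, was the only gene of this list not called (log2 fold change 0.07, adjusted p = 0.76). With replicate 2 alone the count was the same, 21 of 22.

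Mitochondrial fatty acid oxidation held 20 genes called higher and 1 lower of 21 (median 2.98), and the same counts were found with replicate 2 alone. The list took 3.99% ± 0.0493 of BAT counts and 0.746% ± 0.119 and 0.465% ± 0.0350 of those in iWAT and eWAT (SD, n = 3). Acadvl, which starts the oxidation of very long chains, was at 4432, 4325 and 4244 CPM in BAT, 214, 240.1 and 237 in iWAT and 144, 148 and 109 in eWAT. It was 24.7-fold higher in BAT (log2 fold change 4.63 ± 0.14, adjusted p = 4.6e-09). The subunits of the trifunctional protein, Hadha and Hadhb, rose with 3.51 and 4.32. The single gene called lower was Cpt1a, described with its partner below. Peroxisomal oxidation moved less, with 11 of 17 called higher, 1 lower and a median of 0.93. Ehhadh, the peroxisomal bifunctional enzyme, rose 7.79-fold, while Abcd2, a peroxisomal importer of long acyl chains, was 2.72-fold lower and Abcd3, another importer, rose with a log2 fold change of 2.84.

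Pairs of related genes were compared by their shares. These were computed on CPM per kb of transcript, as the level of 1 gene in the sum of both. Cpt1 loads fatty acids onto carnitine at the outer membrane, and Cpt1b made up 97.3% ± 0.350 (SD, n = 3) of Cpt1b plus Cpt1a in BAT, 9.76% ± 1.02 in iWAT and 7.57% ± 0.775 in eWAT. Cpt1b was at 2030.3, 2171 and 1963 CPM in BAT, 18.1, 13.2 and 13.4 in iWAT and 15.1, 14.3 and 16.6 in eWAT (log2 fold change 7.09 ± 0.16, adjusted p = 6.3e-10). Cpt1a, the form of liver, was at 84.3, 76.9 and 91 CPM in BAT, 241, 165 and 212 in iWAT and 313, 251 and 278 in eWAT, below every white library (log2 fold change -1.52 ± 0.15, adjusted p = 8.7e-06). Ucp1 made up 98.2% ± 0.887 of Ucp1 plus Ucp2 in BAT and at most 0.993% in any white library. Ucp2, also strong in macrophages, was at 111, 87.8 and 128 CPM in BAT, 354, 203 and 409 in iWAT and 1075, 1134 and 1035 in eWAT (log2 fold change -2.44 ± 0.23), and its eWAT libraries were those with the macrophage sums of 9936 CPM or more. Ucp3 rose with 2.70 ± 0.26.

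In cytochrome c oxidase the heart and muscle type isoforms were added on top of the general ones. Cox7a1 was 67.6% ± 2.10 of Cox7a1 plus Cox7a2 in BAT, 5.05% ± 1.80 in iWAT and 5.62% ± 0.565 in eWAT. Cox8b was 69.4% ± 2.52 of Cox8b plus Cox8a in BAT, 8.14% ± 4.53 in iWAT and 3.63% ± 0.533 in eWAT. Cox7a1 rose 218-fold and Cox8b 136-fold, and their general partners Cox7a2 and Cox8a rose 5.91-fold and 3.47-fold. BAT replicate 2, with the fewest muscle transcripts, had Cox7a1 and Cox8b shares of 65.6% and 67.2%, and Cox7a1 at 411 CPM against 593 and 625. Cox6a2, by contrast, was at 43.0, 3.37 and 36.2 CPM in BAT, lowest in replicate 2 as the muscle genes were. It was not called with replicate 2 alone (log2 fold change 1.65). The sarcoplasmic calcium pump Atp2a1 was also lowest in replicate 2, and its share of Atp2a1 plus Atp2a2 ran from 24.6% to 88.9% within BAT. Ldhb, the lactate dehydrogenase subunit of oxidative tissue, was 38.5% ± 1.55 of Ldhb plus Ldha in BAT, 7.33% ± 1.09 in iWAT and 4.46% ± 0.790 in eWAT. Fabp3, a fatty acid binding protein of heart, was at 596, 421 and 482 CPM in BAT, 0.59, 0 and 0 in iWAT and 0.634, 0.417 and 0.166 in eWAT, a 1722-fold difference, yet it made up 4.24% ± 0.894 of Fabp3 plus Fabp4 in BAT, since Fabp4 was at 10735 CPM or more there. The adenine nucleotide carriers had similar shares in the depots. Slc25a4 was 63.7% ± 5.29 of Slc25a4 plus Slc25a5 in BAT, 53.4% ± 3.53 in iWAT and 49.9% ± 2.26 in eWAT. Its BAT share was lowest in replicate 2, at 57.9% against 68.2% and 65.1% in replicates 1 and 3.

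**Figure D4:**
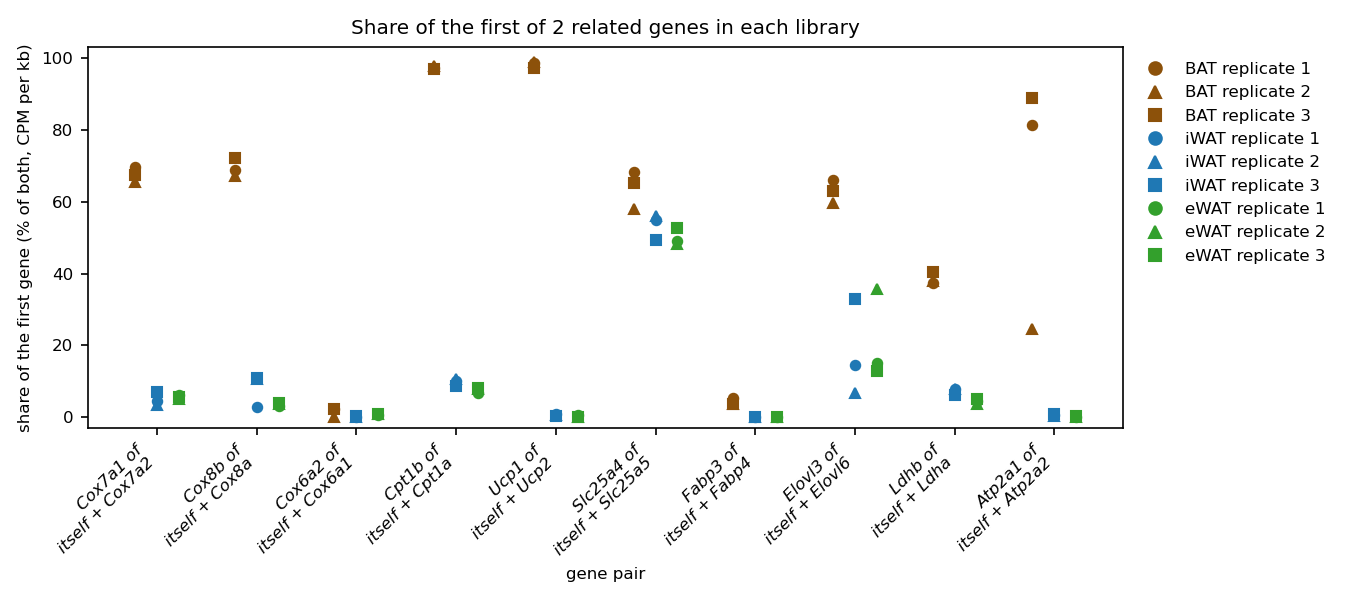
Share of the first gene of 10 pairs in the sum of both, from CPM per kb of transcript (vertical axis, %), in each of the 9 libraries. Cpt1b and Ucp1 hold over 96% in every BAT library, Cox7a1 and Cox8b 65.6% to 72.1%, and the Atp2a1 share splits BAT replicate 2 (24.6%) from replicates 1 and 3.

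Genes of glycolysis and of branched-chain amino acid breakdown were mostly called higher. Of 20 genes of glycolysis and glucose uptake 17 were called higher and 1 lower (median 1.85), and 15 and 1 with replicate 2 alone. Pfkl, the liver type phosphofructokinase, had log2 fold changes of 3.26 in all libraries and 3.33 with replicate 2 alone. Hk2, the hexokinase that traps glucose, was at 350 to 502 CPM in BAT and 77.2 to 161 in white fat. Pgam2 and Eno3, muscle forms of their enzymes, moved with the muscle genes, at 48.5, 4.21 and 47.8 CPM and at 173, 25.1 and 196 CPM in the BAT libraries. Slc2a1, a basal glucose transporter, was called lower (log2 fold change -0.97 ± 0.18, adjusted p = 0.00079). Pdk4, a kinase that switches off pyruvate dehydrogenase, was at 6031, 5322 and 3563 CPM in BAT, 1499.9, 619 and 578 in iWAT and 1184, 418 and 499 in eWAT (log2 fold change 2.65, adjusted p = 0.00041). Of 21 genes for branched-chain amino acid breakdown 20 were called higher and 1 lower (median 1.59), and 19 and 1 with replicate 2 alone. Bckdha, of the committed dehydrogenase step, rose 6.01-fold. The transaminases took opposite directions, with Bcat2, the mitochondrial form, at a log2 fold change of 0.77 (adjusted p = 0.0057, and 0.068 with replicate 2 alone) and Bcat1, the cytosolic form, at -3.48 (adjusted p = 5.7e-05). Against iWAT Bcat2 was not called (log2 fold change 0.49, edgeR adjusted p = 0.10), and against eWAT it was at 1.04. Bcat1 was called lower against both depots. Slc25a44, which carries branched-chain amino acids into mitochondria, rose 1.56-fold, with iWAT replicate 2 at 136 CPM within the BAT range of 113 to 152. It fell under the fold threshold without BAT replicate 2 (log2 fold change 0.54) and by total counts (0.48), and was not called when the white libraries formed 1 group (adjusted p = 0.098).

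Lipid synthesis was mixed. Of 13 genes of de novo lipogenesis 7 were called higher and 0 lower (median 1.31), and 7 and 0 with replicate 2 alone. Elovl6 was at 519, 643 and 359.7 CPM in BAT, 12, 7.54 and 17 in iWAT and 16.4, 17.5 and 12 in eWAT, a 37.1-fold difference. Fasn, fatty acid synthase, was at 6945, 7465 and 1311 CPM in BAT, 708, 601 and 1777 in iWAT and 799.5, 1682 and 295 in eWAT, so BAT replicate 3 fell within the white range while the other brown libraries did not, and the call had a wide error (log2 fold change 2.43 ± 0.66, adjusted p = 0.014). BAT replicate 3 was also the lowest brown library for Scd1, the Δ9 desaturase, at 4168 CPM against 23841 and 21708, and Scd1 was not called (log2 fold change -0.74, adjusted p = 0.22). Acly, the source of cytosolic acetyl-CoA, missed the fold threshold (log2 fold change 0.56, adjusted p = 0.040). It was called without BAT replicate 3 (0.80, adjusted p = 0.0035), without iWAT replicate 3 (0.62), without eWAT replicate 2 (0.63) and with BAT replicate 2 alone (0.79, adjusted p = 0.030). For triglyceride synthesis 10 of 15 were called higher and 1 lower (median 1.35; 9 and 0 with replicate 2 alone), with Gpd1 at 5569 CPM or more in BAT against 1418 or less in white fat. Lipolysis genes were mostly not called against the white mean. Of 12 tested 3 were called higher and 1 lower, with a median of 0.14, and 1 of the 3 was Cidea. The counts were 3 and 1 with replicate 2 alone. Against eWAT 7 of the 12 were higher and 1 lower (median 0.74), and against iWAT 1 was higher and 2 lower (median -0.45). In eWAT 9 were lower and 1 higher than in iWAT. Lipe, hormone-sensitive lipase, and Plin1, the coat protein it docks to, were not called against the white mean (0.17 and 0.26, adjusted p = 0.35 and 0.16). Lipe was at -0.53 against iWAT and 0.87 against eWAT, and Plin1 at -0.39 and 0.91, each called against eWAT only. Pnpla2, which encodes adipose triglyceride lipase, was at 4595, 5093 and 4839 CPM in BAT, 5473, 4880.2 and 3952 in iWAT and 1958, 1633 and 1489 in eWAT. Brown and inguinal libraries overlapped, and the difference from the white mean (log2 fold change 0.77 ± 0.16, adjusted p = 0.0016) was 1.52 against eWAT and 0.02 against iWAT.

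Of 18 genes of adrenergic and cyclic AMP signalling 10 were called higher and 1 lower (median 0.88), and 10 and 2 with replicate 2 alone. Gnas, the stimulatory G protein, rose 5.97-fold with no overlap. Adcy3 and Adcy5, both adenylyl cyclases, took opposite directions. Adcy3 was at 365 to 512 CPM in BAT and 77.0 to 157 in white fat, while Adcy5 was at 12.3, 26.9 and 14.9 CPM in BAT, 827, 587 and 437 in iWAT and 337, 166 and 235 in eWAT (log2 fold change -4.42 ± 0.39, adjusted p = 1.0e-05). Adrb3, the main β-receptor of mouse fat, was at 514, 772 and 191 CPM in BAT, 94.6, 709 and 175 in iWAT and 83.3, 39.6 and 53.5 in eWAT, with iWAT replicate 2 above 2 of the 3 BAT libraries and a wide error (log2 fold change 1.83 ± 0.64, adjusted p = 0.039), and the call was lost with replicate 2 alone (adjusted p = 0.066) and without any of the replicates BAT 1, BAT 2, iWAT 1, iWAT 3, eWAT 2 and eWAT 3 (adjusted p = 0.058 to 0.15). Adrb1 was at 28.2 to 60.9 CPM in BAT and 3.39 to 14.6 in white fat. For creatine cycling, a route of heat production without Ucp1, the synthesis genes Gatm and Gamt were called lower than the white mean (log2 fold changes -1.56 and -2.47). Gatm was at -2.58 against eWAT and at -0.54 against iWAT, where it was not called (edgeR adjusted p = 0.17). Ckb was not called against the white mean (-0.39, adjusted p = 0.21), with eWAT at 204 to 268 CPM, BAT at 59.3 to 79.0 and iWAT at 24.0 to 56.2. It was called higher than in iWAT (0.95, adjusted p = 0.021) and lower than in eWAT (-1.72, adjusted p = 0.00052). Of 12 tested genes of creatine and calcium cycling 7 were higher and 3 lower (median 1.29, and 1.30 with replicate 2 alone). Among the 7, Ckm, Ckmt2, Atp2a1 and Ryr1 were lowest in replicate 2 of BAT, as the muscle genes were. The others were Atp2a2, Ryr2 and Itpr1, with log2 fold changes of 1.09, 1.97 and 1.5.

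White adipocyte genes were low in BAT. Of 16 tested 15 were called lower and 0 higher, with a median log2 fold change of -3.90, and 14 had all BAT below all white libraries. With replicate 2 alone 11 were called lower, with a median of -3.80. Lep, at chr6:29060221-29073876 on the + strand, was at 22.1, 43.9 and 64.1 CPM in BAT, 3938, 1608 and 3419 in iWAT and 1929, 2666 and 1683 in eWAT. It was 57.5-fold lower in BAT (log2 fold change -5.85 ± 0.49, adjusted p = 7.0e-06). Mest, an imprinted gene linked to adipocyte enlargement, was 66.8-fold lower, at 17.4 to 30.0 CPM in BAT and 864 to 2824 in white fat. Several of these genes had an inguinal excess. Retn, which encodes resistin, was at 15.1, 38.9 and 43.2 CPM in BAT, 548, 720.0 and 675 in iWAT and 148, 137 and 77.7 in eWAT, and Slc7a10, an amino acid transporter of white adipocytes, at 14.9, 36.3 and 31.8 CPM in BAT, 422, 436 and 430.5 in iWAT and 173, 193 and 189 in eWAT, each lower in eWAT than in iWAT (adjusted p = 0.0017 and 0.0048). Agt, angiotensinogen, had the opposite order, at 1.07, 0.748 and 2.11 CPM in BAT, 4.89, 11.8 and 6.09 in iWAT and 55, 47.1 and 47.3 in eWAT (eWAT against iWAT, adjusted p = 0.00044). Tcf21, a factor of visceral white fat, was at 5.77 to 7.98 CPM in eWAT, with 0 counts in BAT and 0.059 CPM at most in iWAT, so its difference from the white mean came from 1 depot. Rbp4, a carrier of retinol, was the gene not called (log2 fold change -0.32, adjusted p = 0.38).

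The genes of all adipocytes stood close to zero. Of 18 tested 5 were called higher, 3 lower and 10 neither, with a median of 0.28, which lies inside the middle 50% of all genes. From replicate 2 alone 4 were called higher and 2 lower (median 0.34). Fabp4 was at 10735 to 12572 CPM in BAT, between iWAT (15373 to 16827) and eWAT (6210.4 to 8930.5), and was not called against the white mean (0.04 ± 0.17 on the log2 scale, adjusted p = 0.87). Pparg, the master regulator of fat cells, was at 284, 462 and 363 CPM in BAT, 259, 297 and 240.0 in iWAT and 141, 142 and 130.5 in eWAT, higher in BAT by 0.95 ± 0.15 (adjusted p = 0.00025), with BAT and iWAT overlapping. Adipoq, which encodes adiponectin, was called lower (-0.66 ± 0.19, adjusted p = 0.012), a difference of -1.29 against iWAT and -0.04 against eWAT, and was not called with replicate 2 alone (adjusted p = 0.14) or without BAT replicate 1 (adjusted p = 0.072). Fabp5 and Plin4 were the other genes called lower, with all BAT below all white libraries. Of these 18 genes 15 were lower in eWAT than in iWAT and 0 higher, so the white mean averaged unequal depots.

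Other secreted factors went mostly down. Of 16 adipokine and batokine genes 4 were called higher and 9 lower, and 3 and 6 with replicate 2 alone. Nampt, an enzyme of NAD synthesis that is also secreted, was at 422 to 659 CPM in BAT and 64.9 to 131 in white fat. Bmp8b was at 1.56 to 4.55 CPM in BAT and had counts in 1 of 6 white libraries. Metrnl and Ccl2, a cytokine and a monocyte attractant, were lowest in BAT and highest in eWAT, with Ccl2 at 0.748 to 2.41, 8 to 12.4 and 28.8 to 33 CPM in BAT, iWAT and eWAT. Of 11 peroxisome proliferator, thyroid hormone and partner receptor genes 6 were higher and 1 lower (9 and 1 with replicate 2 alone), with Rxrg at 34.8 to 41.4 CPM in BAT against 5.04 to 20.8 in white fat and Rxra called lower (log2 fold change -0.70 ± 0.12). Nr4a1, an immediate early gene, ranged from 16.2 to 166 CPM within BAT. Of the 8 caspase genes tested 5 were called lower in BAT and 0 higher (median -1.29, and 5 of 8 with replicate 2 alone). Casp1, the inflammatory caspase, was at 2.14 to 3.46 CPM in BAT, 11.4 to 17.1 in iWAT and 36.5 to 45 in eWAT. Its order over the depots was that of the macrophage sum, and the part of macrophages in it was not tested.

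Hox genes are laid out in clusters, and higher numbers mark more posterior origins. Of 17 genes of clusters A and B 3 were called higher and 3 lower against the white mean, and of 10 genes of clusters C and D 2 were higher and 6 lower (median -1.41). Over all genes 21.0% were higher and 24.3% lower, and 11 of the 17 in clusters A and B were not called. The counts were 2 and 4 of 17 in clusters A and B and 1 and 7 of 11 in clusters C and D with replicate 2 alone. In clusters A and B the count of lower genes was 6 without BAT replicate 3 and 5 without iWAT replicate 3. Hoxa4 and Hoxa5 were the anterior genes with the largest rise, at 19.2 to 24.0 and 43.3 to 58.1 CPM in BAT against 1.98 to 3.95 and 5.97 to 14.8 in white fat. Hoxc10 was at 31.2, 33.2 and 20.3 CPM in iWAT and 0.173, 0.0522 and 0.443 in eWAT, and BAT had no count in any library, which puts it at least 42.1-fold below the white mean. Hoxa10 had no count in BAT, 15.3 to 25.5 CPM in iWAT and 0 to 0.721 in eWAT. These posterior genes were high in iWAT alone among the 3 depots, and the eWAT libraries were near zero beside BAT. Hoxc8 and Hoxc9 were intermediate in eWAT, with Hoxc9 at 9.07 to 21.3 CPM in iWAT, 2.24 to 7.98 in eWAT and 0.402 at most in BAT. Hoxd3 and Hoxd4 were lower in BAT with log2 fold changes of -2.13 and -1.29.

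**Figure D5:**
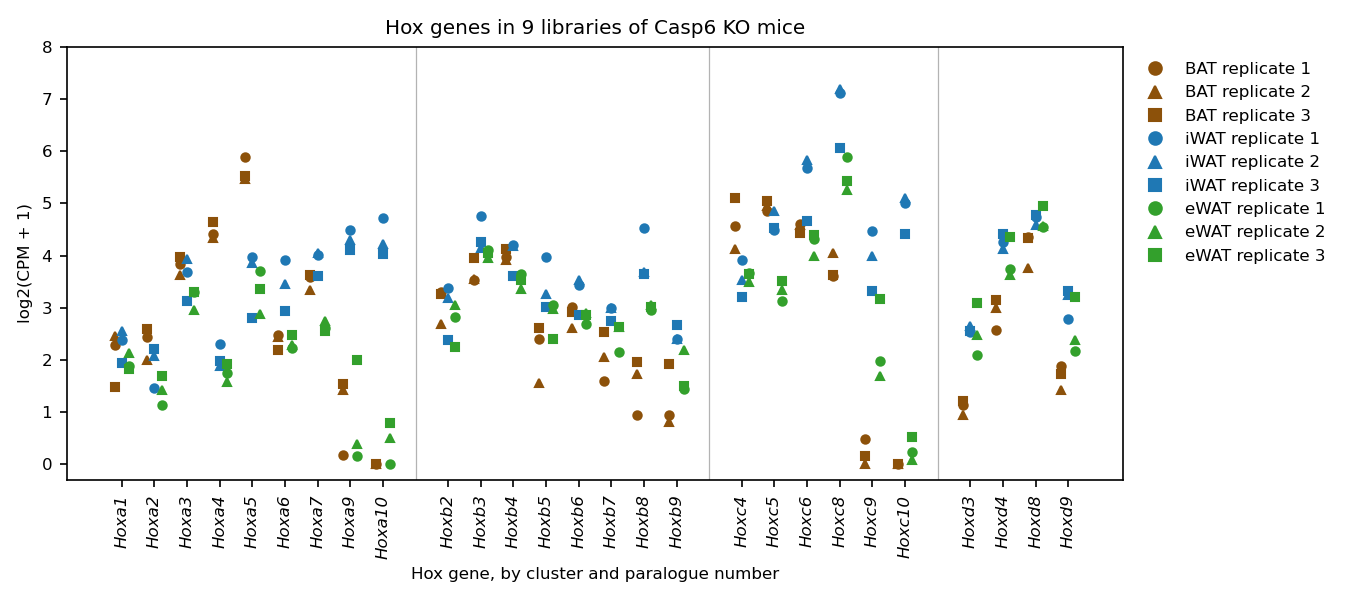
Level of 27 tested Hox genes, as log2(CPM + 1), in the 9 libraries, ordered by cluster and paralogue number. Each point is 1 library, coloured by depot. Hoxa4 and Hoxa5 are highest in BAT, Hoxa10 and Hoxc10 have no count in BAT and at most 0.721 CPM in eWAT, and Hoxc8 is highest in iWAT.

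Of 25 macrophage genes 21 were called lower in BAT against the white mean (median -2.23), 11 lower against iWAT (median -1.04) and 23 lower against eWAT (median -3.42). The count was 17 lower with replicate 2 alone. Against iWAT 1 gene was called higher, Cx3cr1, at 1.22 to 1.88 CPM in BAT and 0.575 to 0.597 in iWAT. Cd68, a lysosomal macrophage marker, was at 19.8, 9.91 and 15.3 CPM in BAT, 46, 38.7 and 168 in iWAT and 742, 789 and 724 in eWAT (log2 fold change -4.07 ± 0.57, adjusted p = 0.00038). Trem2, a lipid receptor of lipid-laden macrophages, was at 1.21, 1.31 and 3.22 CPM in BAT, 8.96, 7.02 and 68.1 in iWAT and 261, 399 and 309 in eWAT, and Gpnmb, a lysosomal glycoprotein, at 9.54 to 17.3 CPM in BAT and 2352 to 3150 in eWAT. With replicate 2 alone Trem2 was not called (adjusted p = 0.053). In iWAT replicate 3 both stood above the other inguinal libraries, as did the macrophage sum. Mrc1 and Lyz2 did not separate BAT from iWAT, and Cd163 and Timd4, of resident macrophages, were not called (log2 fold changes -0.50, under the fold threshold, and -0.30; adjusted p = 0.029 and 0.71). MHC class II genes were lower in 8 of 9 (median -1.75, and 6 of 9 with replicate 2 alone), with Cd74 at 222 to 325 CPM in BAT, 418 to 710 in iWAT and 1208 to 1884 in eWAT. Of 13 lymphocyte genes 5 were called lower against the white mean, 0 against iWAT and 11 against eWAT, and 0 with replicate 2 alone. Without eWAT replicate 3, the library with high B cell genes, 4 were called lower against the white mean, and without iWAT replicate 3 it was 1, without BAT replicate 1 or 3 it was 2 and without BAT replicate 2 it was 0. DESeq2 called 8 of 14 lower.

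Stroma and matrix genes were lower in the brown libraries. Of 32 collagen genes 18 were called lower and 4 higher (median -1.64, and 16 and 3 with replicate 2 alone), and collagen genes took 0.193% ± 0.0199 of BAT counts against 0.840% ± 0.155 in iWAT and 1.31% ± 0.121 in eWAT (SD, n = 3). The fibrillar genes Col1a1 and Col3a1 were at 75.5 to 105 and 162 to 242 CPM in BAT, with 589 to 1428 and 769 to 2933 in white fat. Col15a1 and Col18a1, basement membrane collagens, fell by 3.72 and 3.54 on the log2 scale. Col6a5 was at 172 to 260 CPM in eWAT, 0.472 to 0.863 in iWAT and 0 to 0.556 in BAT. The collagen that ran against the rest was Col27a1, at 162, 169.9 and 216 CPM in BAT, 6.43, 9.72 and 8.41 in iWAT and 9.05, 11 and 13.1 in eWAT (log2 fold change 4.26 ± 0.16, adjusted p = 1.3e-08), and it kept 4.16 with replicate 2 alone. Of 16 progenitor genes 12 were lower and 0 higher in BAT (median -1.26, 10 of 16 with replicate 2 alone). Pdgfra, the pan-progenitor receptor, was at 31.2, 33 and 31.2 CPM in BAT, 28.4, 64.1 and 36.3 in iWAT and 187, 111 and 129 in eWAT, a difference of -2.16 against eWAT and -0.43 against iWAT, and it was not called with replicate 2 alone (adjusted p = 0.091). The 10 mesothelial genes summed to 26.6 to 31.3 CPM in BAT, 115 to 144 in iWAT and 109 to 266 in eWAT, so the white depots overlapped, and 7 were called higher and 1 lower in eWAT than in iWAT. The gene called lower was Cldn15, at a mean of 127 CPM in iWAT and 67.3 in eWAT, so this 1 gene made up most of the inguinal sum. Wt1, Upk1b and Bnc1 had 0 counts in all BAT and iWAT libraries and 10.1 to 24.3, 4.15 to 20.2 and 2.59 to 10.3 CPM in eWAT, and the fit against the white mean gave no usable error for them. Of 10 mesothelial genes 5 were called lower in BAT against the white mean, 1 against iWAT and 10 against eWAT. The 5 became 1 without BAT replicate 1 or 3, 2 without BAT replicate 2, 3 without eWAT replicate 3 and 1 with BAT replicate 2 alone, while DESeq2 called 8 of 10 lower.

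Vessel and nerve genes showed no common direction against the white mean. Of 16 endothelial genes 3 were higher and 3 lower (median 0.11), and 2 and 3 with replicate 2 alone. Against eWAT 8 endothelial genes were higher and 1 lower (median 0.57), and against iWAT 2 were higher and 3 lower (median -0.20). In eWAT 10 were lower than in iWAT and 0 higher, so the white mean averaged unequal depots here too. Pecam1 and Cdh5, junction proteins of all endothelium, had log2 fold changes of 0.06 and 0.11 against the white mean (adjusted p = 0.70 and 0.53). Flt1, a VEGF receptor, was at 267 to 328 CPM in BAT and 71.8 to 179 in white fat, while Cldn5, a tight junction gene, was 3.09-fold lower. Of 8 tested Schwann cell and nerve genes 4 were called higher and 1 lower, and 3 and 0 with replicate 2 alone. S100b was at 273, 232 and 295 CPM in BAT, 4.48, 6.27 and 10.1 in iWAT and 0.75, 2.5 and 2.99 in eWAT (69.6-fold), whereas the Schwann cell genes Sox10 and Cdh19 overlapped with iWAT and Mbp was not called (0.14, adjusted p = 0.46). Of 10 hepatocyte genes 6 were lower and 0 higher, with 3 lower without BAT replicate 1 2 without BAT replicate 2 or 3 and 1 with replicate 2 alone. Trf, transferrin, which adipocytes also make, held most of that list's sum, and the liver gene Alb was at 0 to 3.65 CPM in BAT and 16.8 to 193 in white fat (adjusted p = 0.0033, and 0.079 with replicate 2 alone).

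The genes with the largest differences were read last. Among called genes at 5 CPM or more in the higher tissue and with no overlap of the libraries, 2210 were higher and 2149 lower in BAT. The 10 largest rises were Myh4, Ckm, Myom2, Lgr6, Myot, Ucp1, Art1, Atp2a1, Lncbate10 and Tcap, of which Myh4, Ckm, Myom2, Myot, Art1, Atp2a1 and Tcap are genes of skeletal muscle, each with its lowest BAT level in replicate 2. The other 3 were Lgr6, Ucp1 and Lncbate10. Lgr6, a receptor for R-spondins, was at 161, 179 and 94.6 CPM in BAT and had a count in 1 of 6 white libraries, at 0.472 CPM. Lncbate10, a brown fat enriched long noncoding RNA, was at 102, 47.8 and 54.3 CPM in BAT and 0.313 at most in white fat. After these values were seen, the largest rises were listed again among genes whose BAT replicate 2 level was at least 50% of the BAT mean. That list of 15 added Fabp3, Zic1, Rspo4, Fam131c, A530065N20Rik, Cidea, Cyp2b10, Cpn2, Slc27a2, Cox7a1, Aspg and Elovl3. Rspo4 is a ligand of the R-spondin family to which Lgr6 responds, at 33.8, 9.35 and 12.8 CPM in BAT and 0.166 at most in white fat. Slc27a2, a very long chain acyl-CoA synthetase, was at 525 to 822 CPM in BAT and 0.345 to 7.28 in white fat.

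Among the 10 largest falls were Kcnj14, Pramef12, Gm9696, Slc5a7, Itgad, Tph2, Hoxc10, Gpr50 and Slpi. Kcnj14, a potassium channel gene, had no count in BAT and 6.15 to 21.4 CPM in the 6 white libraries, so it was at least 37.7-fold lower. Pramef12 and Gm9696 also had no count in BAT, with bounds of 34.8-fold and 17.8-fold. Slc5a7, the choline transporter, was at 0.0935 to 0.445 CPM in BAT, 22.2 to 157 in iWAT and 67.0 to 201 in eWAT. Tph2, the neuronal enzyme of serotonin synthesis, and Itgad, an integrin of leukocytes, were at 0.134 CPM or less in BAT and at 5.23 or more in every white library. Slpi, a protease inhibitor, was at 6.34, 66.9 and 94.3 CPM in eWAT and at 0.345 to 6.32 in iWAT, so its fall was mostly a difference from eWAT. Slpi was not called without BAT replicate 2 (adjusted p = 0.065) or with replicate 2 alone (0.19). Gm9696 and Tph2 were not called with replicate 2 alone (adjusted p = 0.086 and 0.068), nor Hoxc10 when the white libraries formed 1 group (adjusted p = 0.064). Across all tested genes, 86 had no count in BAT, of which 76 were called lower, and 5 had no count in white fat, all called higher.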

How the data were processed

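RNA from 3 fat depots of Casp6 knockout mice was sequenced after poly(A) selection. Per the study's methods, reads were aligned with STAR to mm10 and counted over exons by HOMER, with 1 transcript per gene kept. The authors deposited raw read counts per gene in 1 table per depot. Strand settings, annotation and tool versions are not given in the sources used here, so antisense and overlapping genes are uncertain. Near-identical gene copies are too.

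The 9 knockout columns were joined by symbol, and 51 genes on chrY and 2616 with a differing transcript were left out. Counts were fitted with edgeR 4.0.16 (quasi-likelihood, TMM, filterByExpr by depot) in R 4.3.3, with 1 mean per depot. The white mean gave both depots equal weight. Benjamini-Hochberg adjustment ran over 13655 genes. SE is the log2 fold change over the root of F. The SD of a share measures the spread among the 3 libraries of a depot. Floors of 3 counts cover counting error only. Named genes were those of fixed gene lists and the 10 largest changes in each direction among called genes without overlap at 5 CPM or more. Members and lists were chosen with earlier results of these data known. In counts simulated over 13463 genes, 197 differed in BAT by 2 on the log2 scale, and all others were alike over the depots. The edgeR calls held 87.8% of the changed genes, and 7.49% of the calls were false (90% and 13.9% by DESeq2). In the data 45.4% of genes were called, and 22.8% between the white depots, so these rates hold for the simulated setting only. Alternatives changed the scaling, filter, test, depth, transcripts and libraries, and DESeq2 1.42.0 was run. The use of BAT replicate 2 alone was chosen after seeing the data. Some genes that the rule names are not reported here.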

Additional observations from a re-analysis of the deposited data

How the results depend on the processing

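Of the values of named genes under the alternatives, 2619 kept their direction and their side of the threshold, 108 (of 32 genes) lost the call, 5 gained it and 14 (of 5 genes) changed sign. Without 1 library at a time the counts against the white mean were 2716 to 2973 higher and 2974 to 3421 lower, against iWAT 2210 to 2541 and 2318 to 2801, against eWAT 2977 to 3222 and 3340 to 3730, and for eWAT against iWAT 1465 to 1944 and 957 to 1301. A test against 1.5-fold (glmTreat) called 1553 higher and 1615 lower in BAT than in iWAT, and 1040 higher and 371 lower in eWAT than in iWAT, since it asks more of each gene. With BAT replicate 2 alone 1669 were lower than in iWAT. That setting has fewer samples, a different set of tested genes and no BAT library rich in muscle transcripts. Which of these moved the count was not tested. Scaling by total counts gave 868 genes lower in eWAT than in iWAT and moved the median of all genes against the white mean to -0.19.

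Casp6 ran from -0.345 without BAT replicate 3 to 0.19 without BAT replicate 1, and was at 0.02 without iWAT replicate 3 and 0.0008 without eWAT replicate 2. Fabp4 was at -0.11 by total counts, -0.0018 with at least 10 counts in every library, -0.061 with 2 groups, -0.029 with BAT replicate 2 alone and -0.039 to 0.101 without 1 library at a time, the lowest without BAT replicate 3. Pecam1 was at -0.092 by total counts, -0.0022 to 0.111 without 1 library at a time, the lowest without BAT replicate 3, and -0.042 with BAT replicate 2 alone. Cdh5 was at -0.035 by total counts. Acta1, a muscle gene at 2.52 with all libraries, was at -0.81 with BAT replicate 2 alone, and its call was lost without any of the replicates BAT 1, BAT 3, iWAT 2, iWAT 3, eWAT 2 and eWAT 3 (adjusted p = 0.059 to 0.103). For these genes the cause was not tested.

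Libraries with the same replicate number had correlations of deviations from -0.07 to 0.26 (mean r 0.05, against -0.02 for other numbers). Deviations from a depot mean offset each other within the depot, so these correlations cannot decide whether libraries were paired. The number was not taken as a pairing because the labels name no animal. With the replicate block 2864 genes were higher and 3324 lower against the white mean. The brown libraries were the shallowest, and with white libraries thinned to their depth 2810 and 3230 were called.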

Other observations

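Among the genes of the lists, 66 were left out because the depot tables count them on different transcripts, 2 of them on transcripts of equal length. With such genes kept, 25 of the 66 were called higher and 13 lower in BAT. Acot11, a thioesterase also known as a thermogenic gene, had a log2 fold change of 6.66 on transcripts of 5650.0 bases in BAT and 5610.0 in both white tables. Differing transcripts were not tested as a part of these values.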
